A study of Mus musculus with 16 samples.

Results

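Microvillus structure and adhesion was followed through 10 genes, *Vil1*, *Pls1*, *Espn*, *Eps8*, *Ezr*, *Myo1a*, *Cdhr2*, *Cdhr5*, *Ush1c* and *Myo7b*, which are known for these roles. All 10 were found by symbol among the 45513 genes counted, and all 10 had enough counts to be tested, among 15323 genes tested in all. The study isolated epithelial cells from the small intestine (SI) of 8 mice to define transcripts of the secretory lineage. From each mouse 1 library of tdTom+ cells and 1 of tdTom- cells was sequenced, which gave 16 libraries. All animals were Atoh1(WT)CreERT2 R26RtdTom mice, young adult males and females on a C57BL/6 background, and all had received tamoxifen, per the labels 1 mg per day for 3 days running. The methods give the same daily course for the mice of the secretory signature, and under RNA sequencing they also describe samples taken on the day after an injection. CreERT2, a recombinase that tamoxifen activates, lies behind the *Atoh1* coding sequence, and *Atoh1* encodes a transcription factor of secretory progenitors. The recombinase turns on a red reporter, tdTomato (tdTom), for good, so that daughter cells inherit the label. Cells came from crypt-enriched fractions, after the first, villus-enriched fraction had been discarded, and live cells with the epithelial surface protein EpCAM were sorted by their tdTom signal. The tdTom- cells are therefore everything in the epithelium that was not labelled, and not enterocytes alone. In such bulk libraries, fewer cells of a type and less RNA per cell cannot be told apart.

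Microvilli are finger-like folds of the apical membrane, each held up by a bundle of parallel actin filaments. The products of *Vil1*, *Pls1* and *Espn* (villin, plastin 1 and espin) cross-link this bundle, EPS8 sits at its tip, and ezrin and myosin 1a tie it to the membrane. Neighbouring microvilli are joined at their tips by the protocadherins CDHR2 and CDHR5, which are held in place by USH1C, MYO7B and ANKS4B. The dense, even brush border built this way is best known from absorptive enterocytes, whereas goblet, Paneth and enteroendocrine cells also carry apical microvilli, in smaller number and less regular order.

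All 10 genes were lower in tdTom+ than in tdTom- cells, and each of them was lower in 8 of 8 mice. They did not fall by the same amount. *Pls1*, *Cdhr2*, *Vil1*, *Myo7b* and *Espn* were lower by more than 2-fold, *Myo1a* and *Ezr* by about 2-fold, and the decreases of *Cdhr5*, *Ush1c* and *Eps8* lay inside 2-fold. The level left in tdTom+ cells ran from 33.7% of that in tdTom- cells for *Cdhr2* to 69.1% for *Eps8*. The median log2 fold change of the 10 genes was -1.19, and that of all 15323 genes tested was 0.017.

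Calls were made in the paired fit of edgeR (mouse as a block), where an adjusted p below 0.01 was required. By this rule 10 of 10 microvillus genes were lower, where 30.0% of all genes tested were called lower and 25.8% higher. With at least 10 counts required in every library, the split over all genes turned from 4600 lower and 3956 higher to 3356 lower and 4448 higher, and all 10 microvillus genes were still called lower. A gene counted as lower beyond 2-fold where the same fit, tested against a 2-fold margin (glmTreat), gave an adjusted p under 0.01. This held for 5 of the 10 genes and for 7.90% of all genes tested. It held for 4 genes without mouse 3, without the mouse block or with at least 10 counts in every library, since *Espn* was then not past the margin. A gene counted as inside 2-fold where the 95% interval of its log2 fold change lay between -1 and 1. That held for 3 of the 10 genes, and for 69.3% of all genes. Decreases in all 8 mice were found for 27.4% of all genes. In 7 of the 10 genes every tdTom+ library lay below every tdTom- library, which was the case for 17.0% of all genes.

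**Figure D1:**
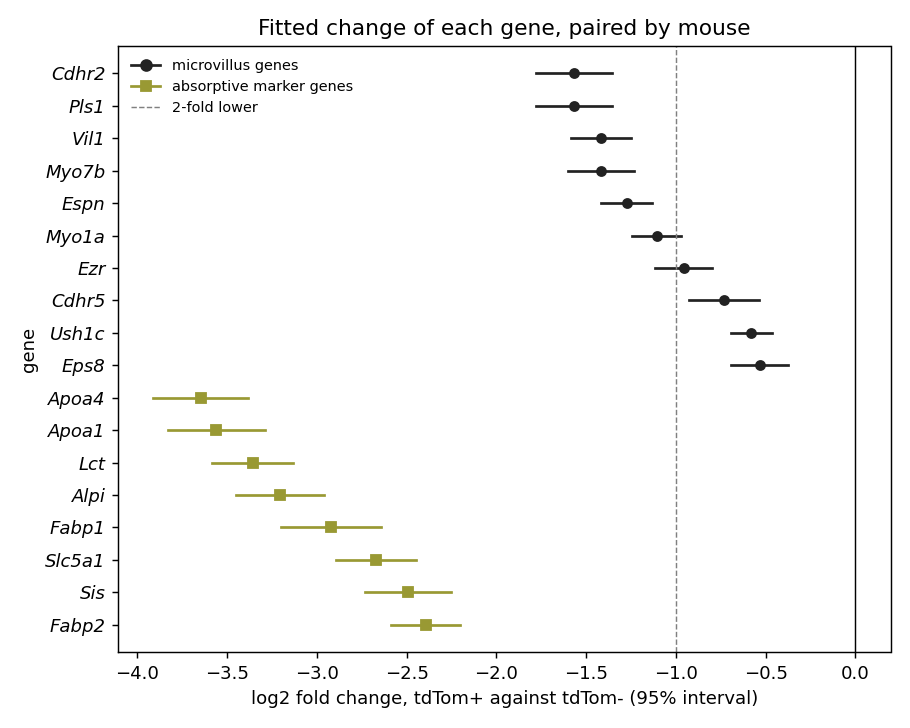
Fitted log2 fold change of tdTom+ against tdTom- cells (x axis) for the 10 microvillus genes (black circles) and 8 absorptive marker genes (green squares), with 95% intervals as bars. The microvillus genes run from -1.57 (*Cdhr2* and *Pls1*) to -0.53 (*Eps8*), and every absorptive marker lies further to the left.

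The labels were checked first. *Atoh1* rose from 0.718 ± 0.247 to 62.5 ± 12.7 CPM (counts scaled to a common library size with TMM factors; SD, n = 8 each). *Epcam*, the gene of the sort, had a log2 fold change of -0.11 and was not called (edgeR adjusted p = 0.109). Total counts ran from 17116405 to 25323567 per library. All 8 goblet and all 8 Paneth markers were higher in tdTom+ cells, as were all 8 enteroendocrine markers and all 6 tested markers of tuft cells, which carry long microvilli. Summed tuft markers ran from 18.8 to 113 CPM in tdTom- and from 78.7 to 341 CPM in tdTom+ libraries. Of the stem cell markers 5 of 8 were higher and of the proliferation markers 0 of 8 were called. Of the immune markers 6 of 7 tested were lower, with sums of 10.2 to 143 CPM in tdTom- and of 5.79 to 27.5 CPM in tdTom+ libraries. Of 8 stromal markers only *Vim* was called (higher), and 5, the collagens *Col1a1*, *Col1a2* and *Col3a1* with *Dcn* and *Pdgfra*, were under the filter on low counts. The mitochondrial share of a library was 14.3% ± 4.73 in the tdTom- and 2.62% ± 0.67 in the tdTom+ group (SD, n = 8 each). The part of these shifts in the results below was not tested.

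In the coordinates of the deposited files (GRCm38), *Vil1* (ENSMUSG00000026175) lies on chromosome 1 from 74409376 to 74435559, *Pls1* (ENSMUSG00000049493) on chromosome 9 from 95752642 to 95845311, *Espn* (ENSMUSG00000028943) on chromosome 4 from 152120331 to 152152371 and *Eps8* (ENSMUSG00000015766) on chromosome 6 from 137477245 to 137654876. *Ezr* (ENSMUSG00000052397) lies on chromosome 17 from 6738041 to 6782784 and *Myo1a* (ENSMUSG00000025401) on chromosome 10 from 127705170 to 127720887. Of the adhesion genes, *Cdhr2* (ENSMUSG00000034918) lies on chromosome 13 from 54701461 to 54736662, *Cdhr5* (ENSMUSG00000025497) on chromosome 7 from 141269085 to 141276786, *Ush1c* (ENSMUSG00000030838) on the same chromosome from 46195350 to 46238503 and *Myo7b* (ENSMUSG00000024388) on chromosome 18 from 31959234 to 32036961. Each count is the sum over the exons of a gene on its own strand. *Vil1*, *Ezr* and *Myo7b* overlap genes on the opposite strand, which were counted separately.

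Among the proteins that bundle the actin core, *Vil1* was the gene with the highest level. Villin bundles actin filaments and can also cap and sever them. *Vil1* CPM ran from 1602 to 2928 in tdTom- libraries (median 2499) and from 739 to 978 in tdTom+ libraries (median 887). The groups did not overlap. The log2 fold change was -1.42 (SE 0.078; edgeR adjusted p = 1.85e-09), which leaves 37.5% of the tdTom- level. The decrease was past the 2-fold margin (edgeR adjusted p = 8.25e-05).

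*Pls1* encodes plastin 1, the fimbrin of the intestinal brush border. Its CPM ran from 749 to 1544 in tdTom- libraries (median 1208) and from 285 to 439 in tdTom+ libraries (median 396). The lowest tdTom- library was thus well above the highest tdTom+ library. With a log2 fold change of -1.57 (SE 0.097; edgeR adjusted p = 6.13e-09), *Pls1* and *Cdhr2* had the largest decreases of the 10 genes. For *Pls1* the decrease was also past the 2-fold margin (edgeR adjusted p = 3.48e-05).

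*Espn* encodes espin, a bundler that is also found in the stereocilia of the inner ear. Its levels were the lowest per length of the 10 genes. *Espn* CPM ran from 73.2 to 172 in tdTom- libraries (median 139) and from 34.8 to 66.2 in tdTom+ libraries (median 52.1), with no overlap. This was a log2 fold change of -1.27 (SE 0.066; edgeR adjusted p = 1.03e-09), past the 2-fold margin (edgeR adjusted p = 0.000745). The margin was not passed without mouse 3 (edgeR adjusted p = 0.0134), without the mouse block (edgeR adjusted p = 0.068) or with at least 10 counts in every library (edgeR adjusted p = 0.0323).

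*Eps8*, whose product caps and bundles actin at the tips of microvilli, had the smallest decrease. Its CPM ran from 124 to 198 in tdTom- libraries (median 179.8) and from 101 to 131 in tdTom+ libraries (median 115). Here the groups overlapped, because the tdTom- library of mouse 7 lay among the tdTom+ libraries. The log2 fold change was -0.53 (SE 0.073; edgeR adjusted p = 2.13e-05), with a 95% interval from -0.69 to -0.37. Within single mice the change ran from -0.83 to -0.10.

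**Figure D2:**
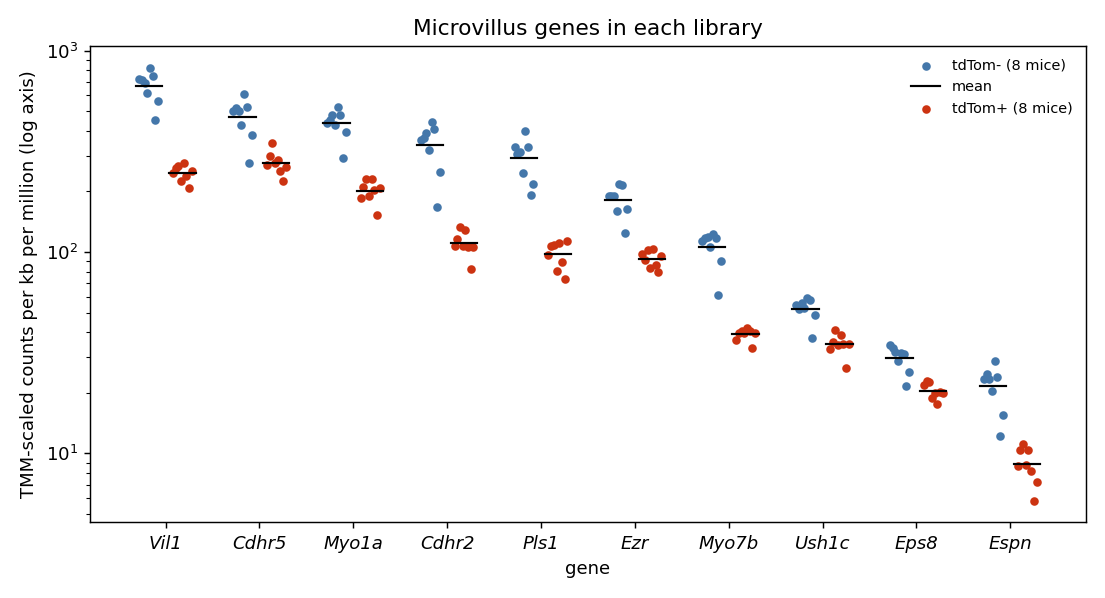
CPM per kb of exon (y axis, log scale, labelled as TMM-scaled counts) of each microvillus gene in the 8 tdTom- (blue) and 8 tdTom+ (red) libraries, with group means as lines and genes ordered by their tdTom- mean. The blue points lie above all red points for 7 genes and overlap them for *Cdhr5*, *Ush1c* and *Eps8*.

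Of the proteins that join the bundle to the membrane, ezrin binds membrane proteins at one end and actin at the other. *Ezr* CPM ran from 409 to 720.0 in tdTom- libraries (median 625) and from 262 to 339.9 in tdTom+ libraries (median 308), with no overlap. *Ezr* changed by -0.96 on the log2 scale (SE 0.073; edgeR adjusted p = 5.45e-08). Its 95% interval, from -1.11 to -0.80, held the 2-fold limit, so *Ezr* was placed neither beyond nor inside it. With at least 10 counts in every library, *Ezr* lay inside 2-fold.

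Myosin 1a is the motor that links the sides of the actin bundle to the membrane of the brush border. *Myo1a* CPM ran from 992 to 1785 in tdTom- libraries (median 1501) and from 517 to 785 in tdTom+ libraries (median 694), again with no overlap. Its log2 fold change was -1.11 (SE 0.063; edgeR adjusted p = 2.88e-09), with a 95% interval from -1.24 to -0.97. The test against the 2-fold margin was not passed (edgeR adjusted p = 0.0873).

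The 4 genes of the adhesion complex did not move as a block. *Cdhr2* encodes 1 of the 2 protocadherins of the tip link. Its CPM ran from 688 to 1836 in tdTom- libraries (median 1508) and from 339 to 550.0 in tdTom+ libraries (median 444), without overlap. The log2 fold change was -1.57 (SE 0.097; edgeR adjusted p = 6.40e-09) and was past the 2-fold margin (edgeR adjusted p = 3.63e-05).

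*Cdhr5*, the partner protocadherin, fell less. Its CPM ran from 731 to 1595 in tdTom- libraries (median 1322) and from 592 to 912 in tdTom+ libraries (median 719). The groups overlapped through the tdTom- library of mouse 7, and the lowest of the other tdTom- libraries was at 999.9. The log2 fold change was -0.73 (SE 0.091; edgeR adjusted p = 8.21e-06), with a 95% interval from -0.93 to -0.53, so 60.2% of the tdTom- level was left. Without the mouse block the interval ran from -1.04 to -0.47 and was no longer inside 2-fold.

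*Myo7b* encodes the motor that carries the complex to the tips of microvilli. Its CPM ran from 404 to 817 in tdTom- libraries (median 762) and from 221 to 278 in tdTom+ libraries (median 263). The tdTom+ libraries lay close together and below all tdTom- libraries. Between the fractions *Myo7b* changed by -1.41 on the log2 scale (SE 0.085; edgeR adjusted p = 4.69e-09), past the 2-fold margin (edgeR adjusted p = 0.000188).

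*Ush1c* encodes the scaffold harmonin, which binds the tails of both protocadherins. Its CPM ran from 145 to 228 in tdTom- libraries (median 206) and from 103 to 158 in tdTom+ libraries (median 134). These also overlapped through mouse 7 alone, the next tdTom- library being at 188. The log2 fold change was -0.58 (SE 0.052; edgeR adjusted p = 3.29e-07) and its 95% interval, from -0.69 to -0.47, lay inside 2-fold.

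Levels were next compared between genes, as CPM per kb of exon. In tdTom- cells the order of the mean levels was *Vil1* (667), *Cdhr5* (468), *Myo1a* (436), *Cdhr2* (339), *Pls1* (293), *Ezr* (181), *Myo7b* (106), *Ush1c* (52.3), *Eps8* (29.8) and *Espn* (21.5). In most cases neighbours stood in this order in 8 of 8 mice, but *Cdhr5* was above *Myo1a* in only 6 and *Cdhr2* above *Pls1* in only 7. In tdTom+ cells the levels per kb were 277 for *Cdhr5*, 247 for *Vil1*, 201 for *Myo1a*, 111 for *Cdhr2*, 97.4 for *Pls1*, 92.5 for *Ezr*, 39.0 for *Myo7b*, 34.9 for *Ush1c*, 20.4 for *Eps8* and 8.80 for *Espn*. *Pls1* was above *Ezr* in only 5 mice there, and a difference between these neighbours was not tested. *Cdhr2* stood above *Pls1*, and *Myo7b* above *Ush1c*, in 7 mice. The order was thus kept between the fractions apart from its top, where *Cdhr5* and *Vil1* changed places. The log2 ratio of *Cdhr5* to *Vil1* per kb was -0.52 ± 0.082 in tdTom- and 0.16 ± 0.12 in tdTom+ cells (SD, n = 8 each), and *Cdhr5* was the higher gene in 0 of 8 tdTom- and 8 of 8 tdTom+ libraries. Together the 10 genes made up 0.966% ± 0.214 of a tdTom- library and 0.391% ± 0.051 of a tdTom+ library (SD, n = 8 each).

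The ratio of the partner protocadherins was taken within each library. The log2 ratio of *Cdhr2* to *Cdhr5* per kb was -0.49 ± 0.13 in tdTom- and -1.33 ± 0.094 in tdTom+ cells (SD, n = 8 each). It was lower in tdTom+ cells in 8 of 8 mice, by -0.84 ± 0.12, and the fractions did not overlap. *Cdhr5* was the more abundant transcript in both fractions, with *Cdhr2* at 0.712 times its level per kb in tdTom- and at 0.399 times in tdTom+ cells by the mean ratio.

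The bases before the starts of *Vil1*, *Cdhr2* and *Cdhr5* are shown because these genes changed places or drew apart. They are RefSeq sequences on GRCm38.p6, each 250 bases that end just before the RefSeq start, printed along the strand of the gene. This start can differ from the gene bounds given above, and the windows of *Vil1* and *Cdhr2* reach a few bases into them. They come from chr1:74409134-74409383 (forward strand), chr13:54701213-54701462 (forward strand) and chr7:141276787-141277036 (reverse strand). Capitals mark matches to the motifs given after them.
Vil1: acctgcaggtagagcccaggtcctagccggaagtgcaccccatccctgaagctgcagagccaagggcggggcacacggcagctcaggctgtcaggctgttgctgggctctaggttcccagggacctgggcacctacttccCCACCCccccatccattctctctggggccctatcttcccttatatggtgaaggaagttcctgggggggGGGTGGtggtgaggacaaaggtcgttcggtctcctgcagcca
Cdhr2: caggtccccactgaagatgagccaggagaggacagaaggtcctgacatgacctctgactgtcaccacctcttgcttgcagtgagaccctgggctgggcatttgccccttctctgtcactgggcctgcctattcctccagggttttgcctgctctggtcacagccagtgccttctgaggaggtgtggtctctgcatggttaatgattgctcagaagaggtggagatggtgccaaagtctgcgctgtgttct
Cdhr5: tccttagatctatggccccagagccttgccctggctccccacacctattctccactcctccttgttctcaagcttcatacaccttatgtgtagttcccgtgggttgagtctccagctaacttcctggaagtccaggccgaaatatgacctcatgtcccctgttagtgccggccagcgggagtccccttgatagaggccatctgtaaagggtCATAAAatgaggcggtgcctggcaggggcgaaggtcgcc

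Windows of this kind were found for 8 of the 10 genes, all but *Eps8* and *Myo7b*, and *Espn* had 3 of them, which made 10 windows. Both strands were searched for 4 motifs, of which the CDX2 and TATA letters differ in their first base alone. CATAAA or AATAAA, core letters bound by the intestinal factor CDX2, was found in 2 of the 10 windows and in 25.5% of 32851 windows of all genes. The matches lay 39 bases before the *Cdhr5* start and in 1 of the *Espn* windows, and neither *Vil1* nor *Cdhr2* held one. CAAAGNNCA, a form of the HNF4 element, was in 0 of the 10 windows and in 5.49% of all, and TATAAA in 0 of the 10 and in 12.4% of all. CCACCC, the core of the CACCC box, was in 5 of the 10 windows, of *Vil1*, *Espn*, *Ush1c*, *Pls1* and *Ezr*, and in 28.1% of all. In *Vil1* it stood on opposite strands, beginning 110 and 42 bases before the start. Distances are from the RefSeq start. Some windows reach into the gene bounds of the deposited files, and the matches of *Pls1* and *Espn* lie inside those bounds. All matches describe the letters of the windows only.

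The 10 genes were then set beside genes of digestion and absorption in the same mice. All 8 absorptive markers were lower in tdTom+ cells, from -2.39 for *Fabp2*, which binds fatty acids, to -3.65 for *Apoa4*, an apolipoprotein of chylomicrons. Their mean log2 CPM differed by -3.03 ± 0.30 (SD, n = 8), which leaves 12.2% of the tdTom- level, and their summed CPM ran from 14550 to 38346 in tdTom- and from 1563 to 6021 in tdTom+ libraries. Every microvillus gene fell less than the absorptive mean in 8 of 8 mice. The gap was 1.46 ± 0.43 for *Cdhr2* and 1.46 ± 0.37 for *Pls1*, the genes nearest to the absorptive markers. It was 2.50 ± 0.39 for *Eps8*, the farthest (log2 units; SD, n = 8). Transcripts of the absorptive markers were thus present in the tdTom+ libraries, at a lower share of their tdTom- level than any of the 10 microvillus genes. Which cells these transcripts came from was not tested. How much of the microvillus transcripts in tdTom+ libraries came from absorptive cells was not tested either.

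**Figure D3:**
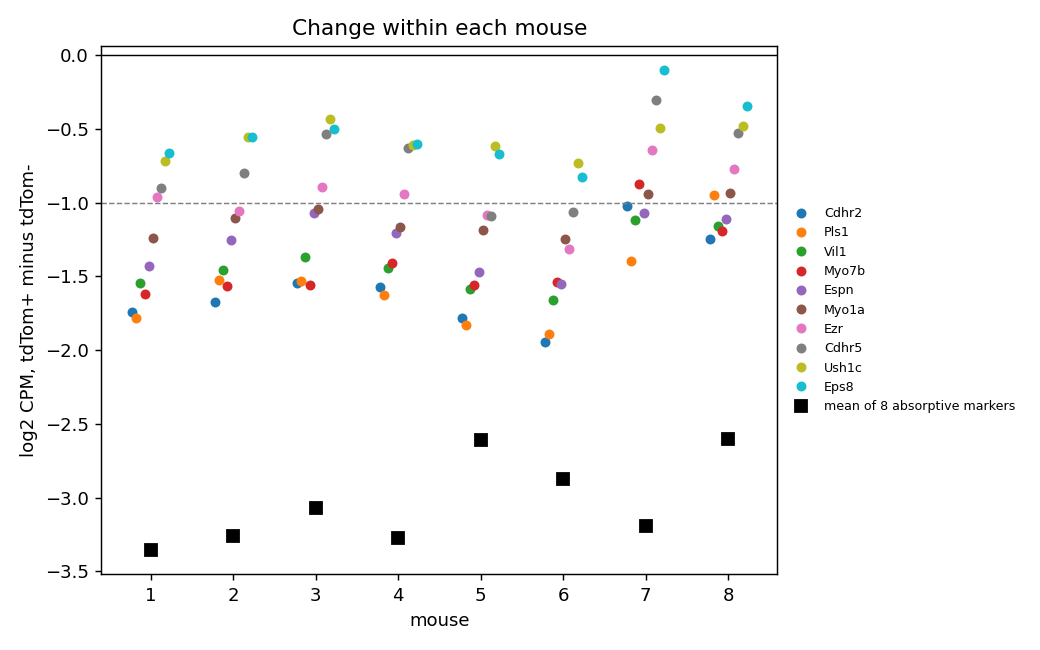
Change in log2 CPM from the tdTom- to the tdTom+ library of each of the 8 mice (x axis), with 1 coloured point per microvillus gene and a black square for the mean of 8 absorptive markers. All points lie below 0, the squares lie between -3.36 and -2.60, and *Eps8* of mouse 7 is nearest to 0 at -0.10.

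Mouse 7 stood apart. Its tdTom- library was the lowest of the 8 for all 10 microvillus genes, at 45.0% (*Cdhr2*) to 69.2% (*Ush1c*) of the median of the other mice, and its absorptive marker mean was also the lowest, at 10.52 against 11.40 to 11.97 (log2 CPM). In the same library the mean of the stem cell markers was the highest, at 6.36 against 5.27 to 5.99, as was that of the proliferation markers, at 6.02 against 4.97 to 5.50, while that of the tuft markers was the lowest, at 0.19 against 1.08 to 2.39 (log2 CPM). Immune markers (3.53) and the mitochondrial share (20.2%) were high in this library, and equally so in the tdTom- library of mouse 8 (3.57 and 20.2%). The tdTom+ library of mouse 7 was likewise the lowest of its fraction for all microvillus genes but *Eps8*. Its absorptive marker mean was the lowest, at 7.32 against 8.26 to 9.36. Its Paneth marker mean was the highest, at 12.98 against 11.74 to 12.38 (log2 CPM). The part of these values in the result was not tested. Without mouse 7 the log2 fold change was -1.64 for *Cdhr2*, -1.46 for *Vil1* and -0.59 for *Eps8*, and all 10 genes were still called lower.

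Other genes were taken from a list of 52, of which 42 were not among the 10. The list held genes of microvilli, the terminal web and apical traffic. It also held relatives of the bundlers and linkers that were listed as paralogs, and not all of these are brush border genes. Of these 42, 39 were tested, and 19 were lower, 13 higher and 7 not called in tdTom+ cells, with a median log2 fold change of -0.22. Of all genes tested, 30.0% were lower and 25.8% higher. Beyond 2-fold, 9 were lower and 6 higher, where 7.90% of all genes were lower and 7.96% higher by this rule. The wider list thus moved both ways. Its shares called lower and higher were each above those of all genes, also beyond 2-fold, and the median over all genes was 0.017. The bundlers, cappers and paralogs held 6 of the 13 higher genes, 4 of them beyond 2-fold, and 2 of the 19 lower genes. Whether the list differs from other genes was not tested.

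**Figure D4:**
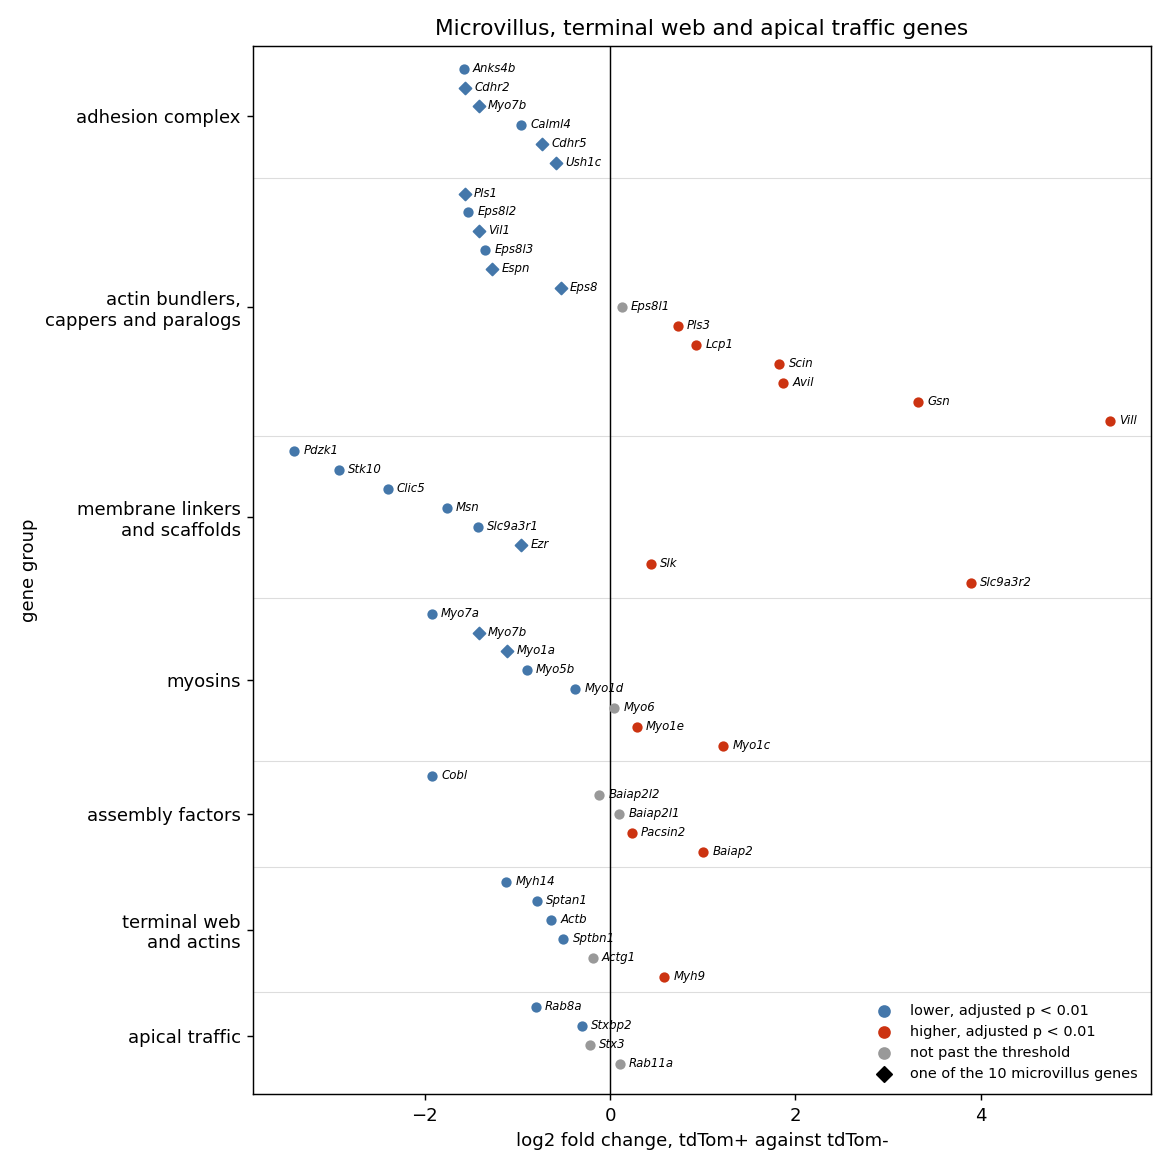
Fitted log2 fold change of tdTom+ against tdTom- cells (x axis) for the tested genes of the wider list, grouped by role on the y axis. Diamonds mark the 10 microvillus genes and colour marks the call. All 6 adhesion genes lie to the left of 0, whereas the actin bundlers and their paralogs run from -1.57 (*Pls1*) to 5.39 (*Vill*).

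Of the other adhesion complex genes, 2 of 2 were lower. *Anks4b*, the scaffold that joins USH1C and MYO7B, had a log2 fold change of -1.58 and *Calml4*, a light chain of MYO7B, of -0.96. All 6 genes of the complex were therefore lower in tdTom+ cells.

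Of the other actin bundlers, cappers and paralogs, 9 of 11 were tested, and 6 were higher, 2 lower and 1 not called. The relatives of villin rose. *Vill* (villin-like) rose from 0.398 ± 0.146 to 17.0 ± 5.36 CPM, *Gsn* (gelsolin, which severs actin) from 20.5 ± 2.86 to 208 ± 45.7 CPM, and *Scin* (scinderin, of the same family) from 121 ± 36.7 to 416 ± 87.7 CPM (SD, n = 8 each). *Avil* (advillin) had a log2 fold change of 1.87, and its level per kb was 3.62 in tdTom- and 12.8 in tdTom+ cells. *Vil1* was therefore 203 times as abundant as *Avil* per kb in tdTom- cells and 20.6 times in tdTom+ cells, by the mean ratio. The log2 ratio differed by -3.30 ± 0.52 (SD, n = 8) and was lower in 8 of 8 mice. In each fraction it was highest in the library with the lowest tuft marker mean (mouse 7 in tdTom-, mouse 8 in tdTom+). It was lowest in the library with the highest tuft marker mean (mouse 3 in tdTom-, mouse 6 in tdTom+). The part of tuft cells in this ratio was not tested.

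The other plastins rose as well, *Lcp1* (plastin 2, known from leukocytes) by a log2 fold change of 0.93 and *Pls3* by 0.73. Both were scarce, and the log2 ratio of *Pls1* to *Lcp1* fell from 7.50 ± 0.94 to 4.99 ± 0.44 and that of *Pls1* to *Pls3* from 7.77 ± 0.73 to 5.47 ± 0.33 per kb (SD, n = 8 each). *Pls1* was still the most abundant plastin in both fractions.

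The EPS8 family split. *Eps8l2* (-1.53) and *Eps8l3* (-1.35) were lower beyond 2-fold, *Eps8* changed by only -0.53, and *Eps8l1* was not called (0.13; edgeR adjusted p = 0.598). Per kb, *Eps8* was the scarcer gene beside *Eps8l2* and *Eps8l3* in both fractions. Its log2 ratio to *Eps8l2* rose from -1.87 ± 0.31 to -0.88 ± 0.29 and its log2 ratio to *Eps8l3* from -2.57 ± 0.18 to -1.76 ± 0.27 (SD, n = 8 each), both in 8 of 8 mice.

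**Figure D5:**
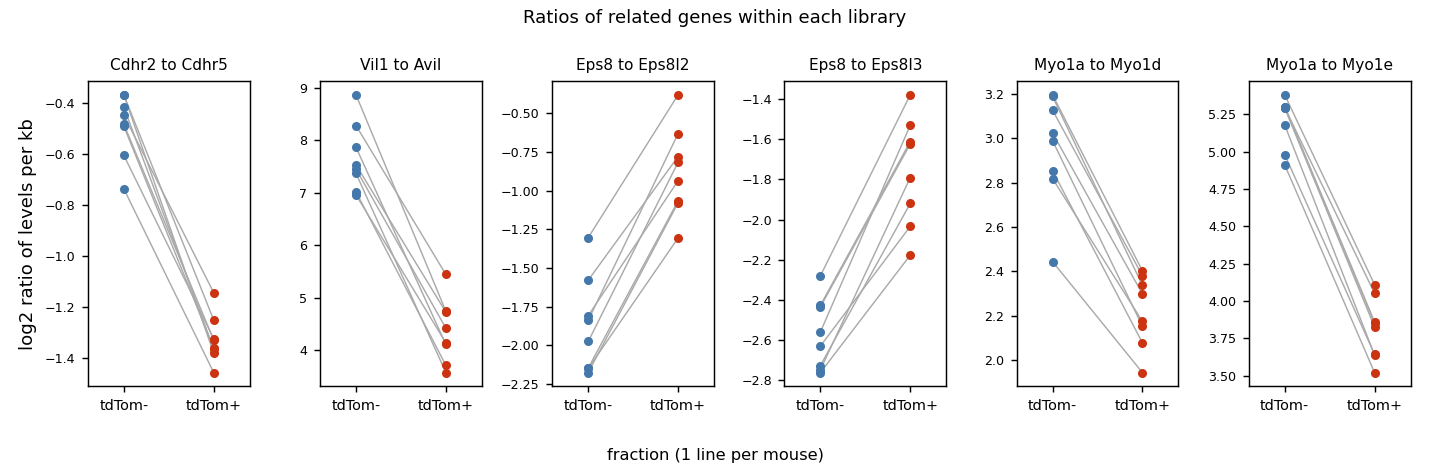
Log2 ratios of levels per kb (y axis, its own scale in each panel) in the tdTom- and tdTom+ library of each mouse, with 1 line per mouse. The ratios of *Cdhr2* to *Cdhr5*, *Vil1* to *Avil* and *Myo1a* to *Myo1d* and *Myo1e* fall in all 8 mice, and the ratios of *Eps8* to *Eps8l2* and *Eps8l3* rise in all 8.

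Of the other membrane linkers and scaffolds, 7 of 8 were tested, and 5 were lower and 2 higher. The kinase genes that act on ezrin moved in opposite directions, *Stk10* by -2.93 and *Slk* by 0.44. *Pdzk1*, an apical scaffold of transporters, had the largest decrease at -3.41, *Clic5*, which acts with ezrin in the brush border, changed by -2.40 and *Slc9a3r1* (EBP50, which binds ezrin) by -1.42. Its relative *Slc9a3r2* rose from 0.342 ± 0.170 to 5.16 ± 1.14 CPM (SD, n = 8 each). Of the ezrin relatives, *Msn* (moesin) fell from 1.98 ± 1.73 to 0.529 ± 0.235 CPM (SD, n = 8 each). Its median in tdTom- libraries was 1.26 CPM. In that fraction its level beside *Ezr* was highest in mice 7 and 8, where the immune marker means were also highest. The part of immune cells in this decrease was not tested. *Rdx* (radixin), at 0.577 ± 0.339 and 0.347 ± 0.178 CPM, was too low to be tested (SD, n = 8 each). Ezrin was thus by far the most abundant of the 3 transcripts in both fractions. *Espnl* and *Fscn1*, further bundlers, were likewise under the filter, with 0 counts in some libraries.

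Of the other myosins 3 were lower, 2 higher and 1 not called. *Myo7a* (-1.92), the relative of *Myo7b*, and *Myo5b* (-0.90), a motor of apical recycling, fell. *Myo1c* (1.22) and *Myo1e* (0.29) rose, *Myo1d* changed by -0.37, and *Myo6*, which moves towards the base of microvilli, was not called (0.04; edgeR adjusted p = 0.521). *Myo1a* was 7.75 times as abundant as *Myo1d* per kb in tdTom- cells and 4.66 times in tdTom+ cells, and the log2 ratio was lower in 8 of 8 mice by -0.73 ± 0.11 (SD, n = 8). Its log2 ratio to *Myo1e* fell from 5.21 ± 0.17 to 3.81 ± 0.20 (SD, n = 8 each). The log2 ratio of *Myo7b* to *Myo7a* rose in 8 of 8 mice, by 0.51 ± 0.30 (SD, n = 8), since *Myo7a* fell more.

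Of 5 assembly factors *Cobl*, an actin nucleator of the brush border, was lower (-1.92), *Baiap2* (1.00) and *Pacsin2* (0.23) were higher, and *Baiap2l1* (0.10) and *Baiap2l2* (-0.12) were not called. In the terminal web, the meshwork of myosin and spectrin under the microvilli, the non-muscle myosin gene *Myh14* was lower (-1.12) and *Myh9* higher (0.59), while the spectrin genes *Sptan1* (-0.79) and *Sptbn1* (-0.51) were lower. Of the actins, *Actb* was lower (-0.64) and *Actg1* was not called (-0.19; edgeR adjusted p = 0.0313). Of 4 genes of apical traffic *Rab8a* (-0.80) and *Stxbp2* (-0.31) were lower, and *Stx3* (-0.22; edgeR adjusted p = 0.0154) and *Rab11a* (0.11; edgeR adjusted p = 0.111) were not called. The calls of *Pacsin2* and *Stxbp2* were lost under other settings, with *Pacsin2* at an adjusted p of 0.0174 and *Stxbp2* at 0.0323 in edgeR without the mouse block. *Stx3* was called lower with total counts (edgeR adjusted p = 0.00226) and *Rab11a* higher with at least 10 counts in every library (edgeR adjusted p = 0.00239).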

How the data were processed

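RNA was measured in 16 libraries, 8 EpCAM+tdTom+ and 8 EpCAM+tdTom-, of 17116405 to 25323567 assigned reads each. Raw counts for Ensembl genes on GRCm38 were deposited by the authors, who obtained them from single-end, stranded mRNA libraries aligned with TopHat2 2.1.1 (version per the submitters' processing notes, which also name Subread 1.5.2 and DESeq2 1.14.1) and counted them, per the file headers with featureCounts 1.5.0-p1, over exons, on the reverse strand, primary alignments only. The length column of the deposited files (bases of exon) was used for levels per kb. The counts had not been normalized. The interval of a value over libraries reflects the spread between mice, and no unique molecular identifiers were used.

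Groups came from the group label and mice from the number in the sample titles, which also carry the same animal number. The pairing was checked by correlating deviations from the group mean, which gave 0.426 on average (lowest 0.245) for libraries of the same number and -0.0569 for different numbers, and the own number was the best match in 8 of 8 mice. Symbols came from a table of Ensembl names and matched 44585 of 45513 identifiers.

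Genes were kept by filterByExpr, scaled with TMM factors and fitted in edgeR 4.0.16 (R 4.3.3) with the mouse as a block. P values were adjusted (Benjamini-Hochberg) over 15323 genes, with a threshold of 0.01. The SE was taken as the log2 fold change over the root of its F statistic. The study's methods name no block, and the fit without it was an alternative. Ratios and log2 CPM per library (prior count of 2) were described by mean, SD and number of mice, without a test. The fit was tested on simulated data that held no differences between mice, so the mouse block itself was not tested. Alternatives were no replicate block, relative log expression factors, total counts, TMM without the 10 most counted genes, no filter, at least 10 counts in every library, thinning to the smallest total, a threshold of 0.05, a margin of 1.5-fold, DESeq2 1.42.0, limma-voom (limma 3.58.1) and leaving out each mouse. For the comparison with absorptive markers they were the panel median and a prior count of 0.5, and for ratios counts not divided by length.

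The 10 genes and all lists were chosen with earlier results of these data known. From the wider list 1 gene is not reported here and is in none of its counts. The text names the 10 genes, wider list genes after the count of their group, the outermost genes of a marker panel where values are given, *Atoh1* and *Epcam*. The stromal markers under the filter were named after their values were seen.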

Additional observations from a re-analysis of the deposited data

Results flagged for a closer look

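Each of the 10 genes, the mean of the absorptive markers and the total count were examined in both fractions for a library far from the other 7, which made 24 sets, and 3 were picked out. About 1 set in 20 is picked by chance alone, or 1.2 of 24. All 3 concerned the tdTom- library of mouse 7, which was the lowest each time. For *Myo7b* its log2 CPM was 8.66 against 9.23 to 9.67 in the other mice, and the gap took 0.56 of the whole range. For *Ush1c* it was 7.18 against 7.55 to 7.83, with a gap of 0.575 of the range. For the mean of the 8 absorptive markers it was 10.52 against 11.40 to 11.97, with a gap of 0.609 of the range. The 10 microvillus genes and the absorptive markers come from the same library, so these values are not independent of each other.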

How the results depend on the processing

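All 10 microvillus genes stayed lower in tdTom+ cells at the threshold in each of the 18 alternatives, and the highest adjusted p was 0.000723, for *Eps8*. Their log2 fold changes moved little, between -1.64 and -1.45 for *Cdhr2* and between -0.60 and -0.41 for *Eps8*. With a margin of 1.5-fold in place of 2-fold, 7 genes were lower beyond the margin and 0 lay inside it (3 inside 2-fold). Without the replicate block *Vil1* changed by -1.43 and *Cdhr2* by -1.61, 4133 genes were lower and 3473 higher over all, and the 10 genes were still called lower, but *Espn* was no longer beyond 2-fold (4 genes left) and *Cdhr5* no longer inside it (2 genes left). The median over genes of the difference from the reported log2 fold change was 0.119 when at least 10 counts were required in every library and 0.104 without mouse 3. *Espn* lost the 2-fold margin in both, and with the former, tried against the margin after seeing the data, *Ezr* moved inside it (4 genes inside). The 10 genes were called lower, against 0, in both. Of 699 values of the 39 wider list genes 682 kept direction and call. The sign turned for 3 genes that were not called, to -0.046 for *Eps8l1* without mouse 4 (-0.046 to 0.28 over the mice left out in turn), to -0.020 for *Myo6* with total counts and to 0.0012 for *Baiap2l2* with at least 10 counts in every library. Among the called genes, *Pacsin2* lost its call in 7 alternatives and *Stxbp2* in 3. Of the genes not called, *Stx3* gained a call in 2 and *Actg1* and *Rab11a* in 1 each. The call of *Actg1* and 1 of the 2 of *Stx3* came with the threshold of 0.05, where the fit was the same. The cause of the other changes was not tested. The gap to the absorptive markers and the ratios kept their direction under all alternatives run for them. Levels of *Msn*, *Rdx*, *Espnl* and *Fscn1* were too low for a ratio to carry weight at this depth.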
